A study of Mus musculus with 50 samples.

Results

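RNA of the testes of 10 wobbler mice was compared with a pool of wild-type testis RNA, array by array, to find out how testis transcripts differ in a mouse whose males do not form normal sperm. The comparison covered all 40 testis arrays among the 50 arrays of the series, chosen by their group label: 10 mutant mice with 4 arrays each, 2 with the mutant RNA in the red dye (Cy5) and 2 with it in the green dye (Cy3). The mutant mice were labelled wr/wr, the wild-type animals wt, and the reference on every array was the same testis pool; ages and background strain are not given in the labels used here. The sample labels list 10 wild-type mice for that pool, whereas the labelling protocol speaks of 6, and the sources used here do not settle this. Each labelling started from 20 µg of total RNA of whole testis.

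The wobbler mutation lies in Vps54, which codes for a subunit of the GARP complex. GARP tethers vesicles that return from endosomes to the trans-Golgi network. In the testis, Golgi-derived vesicles build the acrosome, the enzyme-filled cap of the sperm head, and wobbler males are known for round-headed sperm that lack a normal acrosome and for infertility. The testis itself mixes germ cells at all stages with Sertoli cells, hormone-producing Leydig cells, peritubular cells, vessels and macrophages, so that in whole tissue a smaller number of cells of a type and less RNA per cell cannot be told apart. Genes of the Leydig, Sertoli, cytosolic ribosomal and respiratory chain lists are left out of the genes ranked below, which come from the rest. Gstm1 and Hsd3b1 of the Leydig list and Clu of the Sertoli list are still given, beside members of another list or family.

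Values are log2 ratios, likely of mutant over wild type. The direction was read from which channel the labels put first and is stated nowhere in the sources, and no probe named Vps54 was on the array to check it. On this reading a value of -1 means that the mutant testis gave 50 percent of the signal of the pool. With the opposite direction, higher and lower would swap throughout. Because the wild-type side is 1 pool, the tests below set 10 mutant mice against 0 and hold no measure of how wild-type animals vary. The arrays held values for 19070 to 20189 probes, with array medians from -0.03 to 0.03 before centring. The Cy5 and Cy3 ratios of the same mouse ran against each other in 3 of the 10 mice (Spearman's rho across probes -0.22 for 5905, -0.11 for 5997 and -0.31 for 6065), so results are also given without these 3. The mutant RNA of 5995 gave the best match between orientations, at 0.36.

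Of 20218 tested probes, 2494 differed from 0 in limma's moderated test across the 10 mice at an adjusted p under 0.05, which is 12.3% of them. Higher in the mutant were 1471 (7.28%) and lower 1023 (5.06%). Most differences were small: the median size of a called ratio was 0.20, and 81 called probes reached 0.5. The higher probes made up 59.0% of the calls, but 38.4% of the 1360 calls made with the mutant RNA in Cy3 alone and 58.2% of the 3419 made with it in Cy5 alone. The number of calls depended on single animals. Leaving out mouse 6493 gave 752 calls, and leaving out 6069 gave 998. The count was 1233 when 6335 was left out and 1241 for 5907. For 5995 and 5906 it was 1494 and 1539. Without 5905, 5997 and 6065 together, 2640 were called, of which 1845 were among the 2494.

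Agreement of both orientations was then required. In 314 probes the combined fit and both single-orientation fits made the same call, 162 higher (0.801%) and 152 lower (0.752%). Among the 314 probes every measured mouse had the same sign in 245. The sizes were lopsided: 55 of the lower probes and 5 of the higher ones reached a combined mean of 0.5 in size. The 314 became 493 without 5905, 5997 and 6065, and fell to between 113 and 157 when any one of 6069, 5906, 6335, 5907, 5995, 6493 and 6163 was left out, the lowest without 6069. Outside the 4 lists left out here, these probes belonged to 97 genes on the higher side and 90 on the lower.

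**Figure D1:**
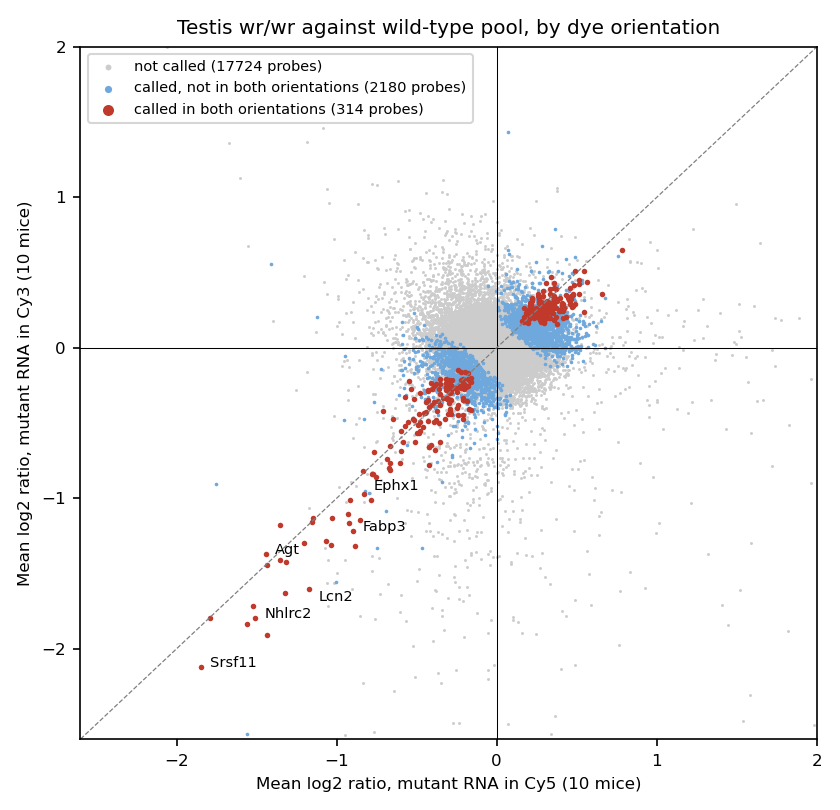
Each point is 1 tested probe, placed by its mean log2 ratio over 10 mice with the mutant RNA in Cy5 (horizontal axis) and in Cy3 (vertical axis); 39 probes lie outside the axes. The 314 red probes, called in both orientations, lie near the dashed line of equality, and the long arm reaches down to Srsf11 at -1.85 and -2.12.

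A difference between the orientations themselves was called for 949 probes (4.69%), 801 of them higher with the mutant in Cy5. Of the 2494 calls of the combined test, 171 were also among the 949, and of the 314 called in both orientations, 1 was. The count depended on which animals entered: leaving out 5905, 5906, 5907, 5995, 5997, 6069, 6163 or 6335 left 1 to 4 probes. Without 6065 it was 1314 and without 6493 it was 1247. Without 5905, 5997 and 6065 no probe was called in limma's test, although 3809 had an unadjusted p under 0.05.

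Agt, which codes for angiotensinogen, the precursor of the angiotensin peptides, had the smallest p among them. Its ratios ran from -1.79 in mouse 5997 over a median of -1.45 to -0.93 in mouse 6065, so that every mutant lay below the pool. The mean was -1.41 ± 0.27 (SD, n = 10), a 2.65-fold reduction with an adjusted p of 1.42e-05 in limma. The mean was -1.44 with the mutant in Cy5 and -1.37 with it in Cy3, and the call remained when each mouse was left out.

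The lowest mean among genes called in both orientations was that of Srsf11, a splicing factor of the SR family. It lay at -3.09 in mouse 5906, -1.98 at the median and -1.31 in 6065, with a mean of -1.99 ± 0.52 (SD, n = 10) and an adjusted p of 8.21e-05. Nhlrc2 followed with one probe at -1.65 ± 0.39 (SD, n = 10), from -2.41 in mouse 5906 to -0.98 in 6493. Its other probes lay at 0.01 and 0.07, neither called, so that the direction for Nhlrc2 rests on 1 of 3 probes.

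Lcn2, the siderophore-binding lipocalin of the acute phase response, ran from -2.17 in mouse 5995 over -1.44 to -0.35 in 5907, with a mean of -1.39 ± 0.52 (SD, n = 10; adjusted p = 0.00126). A further Lcn2 probe gave -0.11 and was not called. Fabp3, the heart-type fatty acid-binding protein, was lower on a pair of probes. The first lay at -1.06 ± 0.40 (SD, n = 10), from -1.65 in 5905 to -0.42 in 6493, and the second at -0.90 ± 0.32 (SD, n = 10), with the same mice at its ends. Their adjusted p-values were 0.00126 and 0.000993. The third Fabp3 probe, at -0.04, did not differ from 0.

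The remaining genes with the lowest means shared a pattern across the animals, with the lowest value in mouse 5907. Over all tested probes the ratios of 5907 also spread the most (median absolute deviation 0.314) and those of 5905 the least (0.107). Nt5c, a nucleotidase that acts on deoxyribonucleotides, ran from -3.08 in mouse 5907 over -1.16 to -0.47 in 5905 (mean -1.37 ± 0.77 SD, n = 10; adjusted p = 0.0113). Glul, glutamine synthetase, lay at -2.22 in 5907, -1.13 at the median and -0.35 in 5905 (mean -1.25 ± 0.67 SD, n = 10; adjusted p = 0.0101), with its other probe at -0.36 and not called. Slc1a2, a glutamate transporter, reached -2.64 in 5907 and -0.07 in 5997 (mean -1.08 ± 0.78 SD, n = 10; adjusted p = 0.0181). The other 3 probes of Slc1a2, at 0.01, -0.16 and 0.03, were not called.

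Ppp2r5d, a regulatory subunit of protein phosphatase 2A, and Snx18, a sorting nexin, behaved alike: both were lowest in mouse 5907, at -2.07 and -2.74. Their means were -1.04 ± 0.65 and -1.02 ± 0.76 (SD, n = 10), and a further probe of each, at 0.04 and -0.12, was not called. Snx18 lost its call without mouse 6493, with an adjusted p of 0.0511. Of the 55 probes called in both orientations with a combined mean of -0.5 or lower, 27 had their lowest value in mouse 5907. No other mouse was lowest in more than 5. Mouse 5907 was also the one with the widest spread over all probes, and the part of that spread in this count was not tested. Itih2, a heavy chain of the plasma protein inter-alpha-trypsin inhibitor, was an extreme case of this pattern on 1 probe, at -4.33 in 5907, -0.81 at the median and -0.23 at the top. It was called in the combined test (adjusted p = 0.0386) but kept its call in 3 of the 10 fits that left out a mouse.

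Further genes lower in both orientations had small p-values. The genes of this paragraph were picked by their p-values after these were seen. That choice favours a small spread relative to the mean, so the spread does not make them a separate kind. Srsf11 and Lcn2, each with an SD of 0.52, were in the same ranking. Ephx1, microsomal epoxide hydrolase, ran from -1.11 to -0.62 with a mean of -0.90 ± 0.17 (SD, n = 10; adjusted p = 1.42e-05). Apoc1, apolipoprotein C-I of plasma lipoproteins, lay between -0.67 and -0.42 (mean -0.56 ± 0.09 SD, n = 10; adjusted p = 1.42e-05). Ugt1a6a, which conjugates compounds with glucuronic acid, lay between -0.99 and -0.38 (mean -0.72 ± 0.19 SD, n = 10; adjusted p = 0.000146). In these genes no mutant reached the level of the pool, as was true of 49 of the 55 probes called in both orientations at -0.5 or lower. Selenop, the selenium carrier of plasma, had the narrowest spread, from -0.39 to -0.16 with a mean of -0.32 ± 0.07 (SD, n = 10; adjusted p = 0.000339). Rnf41, a ubiquitin ligase, lay at -0.44 ± 0.10 and Spon1, the matrix protein F-spondin, at -0.73 ± 0.24 (SD, n = 10).

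Hsd3b2, Hsd3b3 and Akr1cl were also lower in both orientations; Hsd3b2 and Akr1cl were picked after their values were seen. Hsd3b2 and Hsd3b3 belong to the 3-beta-hydroxysteroid dehydrogenases, a family of near-identical copies that array probes may not separate, so that their probes may carry one signal. Hsd3b2 ran from -0.85 to -0.48 (mean -0.68 ± 0.12 SD, n = 10; adjusted p = 1.42e-05). The probes of Hsd3b3 gave -0.74 ± 0.16 and -0.48 ± 0.32 (SD, n = 10), and on the second of them mouse 6065 lay at the level of the pool. The probe of Hsd3b1 was not called: it lay at 0.25 ± 0.28 (SD, n = 10; adjusted p = 0.0665), below 0 in 2 of the 10 mice. Akr1cl, of the aldo-keto reductases, lay at -0.71 ± 0.35 (SD, n = 10; adjusted p = 0.00809).

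**Figure D2:**
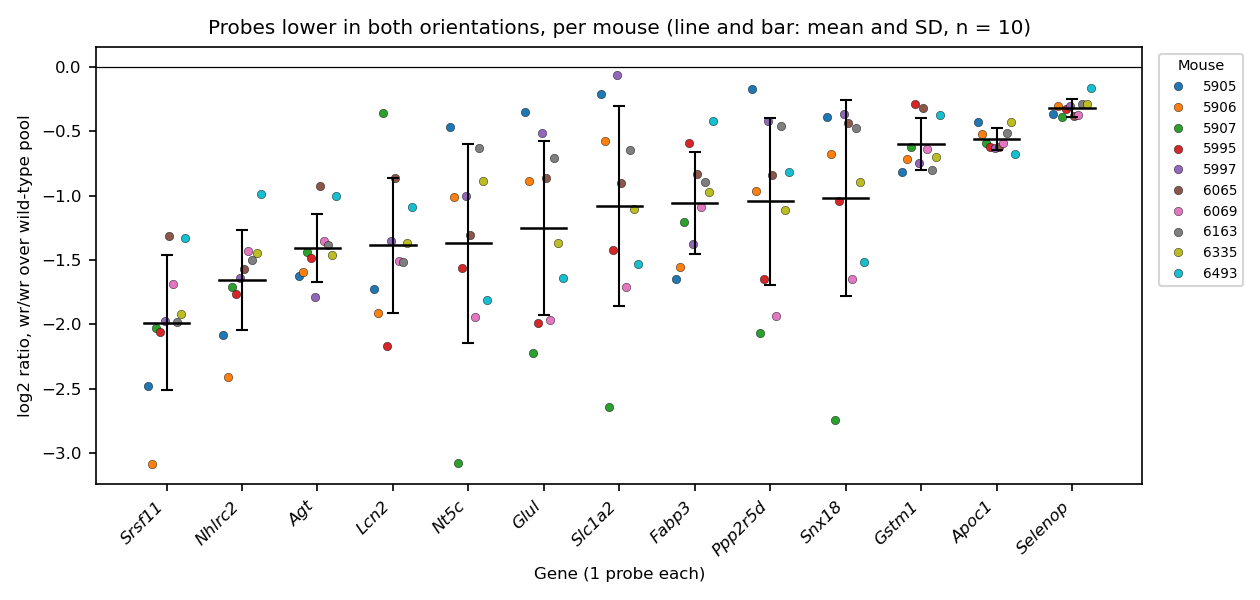
Log2 ratios of the 10 mice (coloured points) for 13 probes lower in both orientations, with the mean (line) and SD (bar). Agt, Apoc1 and Selenop form tight groups below 0, whereas Nt5c, Slc1a2 and Snx18 spread widely, with mouse 5907 lowest at -3.08, -2.64 and -2.74.

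Probes of a gene were taken to agree when all had 1 sign and at least 2 were called, whatever their sizes. This was met by 96 of 2972 genes with at least 2 tested probes, 76 higher (2.56%) and 20 lower (0.673%). Of these, 62 higher and all 20 lower genes lay outside the 4 lists. Leaving out mouse 6493 reduced the 96 genes to 16. For 6069, 5907 and 6335 the numbers left were 28, 30 and 36, and for 5906, 6163 and 5995 they were 47, 48 and 50. The 12 lowest and 12 highest by their mean over all tested probes are described next.

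On the lower side Fabp3, at -0.66 over its 3 probes, and Hsd3b3, at -0.61, came first. Fxyd1, phospholemman, a regulator of the sodium pump, gave -0.54 ± 0.18 and -0.44 ± 0.37 (SD, n = 10). All 10 mice were below the pool on the first of these probes, and on the second mouse 6069 stood apart at -1.36. Fam161a, a protein of the ciliary base, agreed closely between probes, at -0.34 ± 0.16 and -0.33 ± 0.16 (SD, n = 10), and every mouse was below 0 on both. Tmem176a, a membrane protein, was lower on all 3 of its probes, at -0.26 ± 0.09, -0.30 ± 0.19 and -0.39 ± 0.16, with no mouse above 0.

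Ass1, argininosuccinate synthase of the arginine cycle, gave -0.65 ± 0.19 and -0.25 ± 0.18 (SD, n = 10) on its called probes. On the other probe, at -0.02, mouse 6065 lay at 0.71 and the others near or below 0. Neither called probe was called in both orientations: the first had an adjusted p of 0.106 with the mutant in Cy3 alone, and the second lay at -0.03 in Cy5 and -0.48 in Cy3, a called dye difference (adjusted p = 0.0345). Atxn2l, an RNA-binding protein of stress granules, gave -0.74 ± 0.52 and -0.17 ± 0.12, the former again lowest in mouse 5907. Med13, of the Mediator complex, gave -0.40 and -0.32 on called probes and -0.06 on the other, none called in both orientations.

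The remaining lower genes were Cd74, Il1rn, Zfp36l1 and Aox3. Cd74, the invariant chain of MHC class II, gave -0.27 ± 0.09, -0.33 ± 0.29 and -0.13 ± 0.15 (SD, n = 10), of which the first was called in both orientations. That probe kept its call in all 10 fits without a mouse, and the probe at -0.33 in 3. Il1rn, the interleukin-1 receptor antagonist, gave -0.25 and -0.19, and both probes kept their call in 3 of the 10 fits without a mouse. Zfp36l1, which promotes mRNA decay, gave -0.28 and -0.22, and these probes kept their call in 2 and 10 of the 10 fits. Aox3, an aldehyde oxidase, gave -0.25 and -0.18. No probe of Il1rn, Zfp36l1 or Aox3 was called in both orientations. For Il1rn, Zfp36l1 and Cd74 the difference was larger with the mutant in Cy5 than in Cy3 on 6 of 7 probes, for example -0.45 against -0.11 on the first probe of Zfp36l1.

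Among higher transcripts Prss52, a serine protease of the testis, led the genes with agreeing probes. It lay at 0.45 ± 0.29 and 0.30 ± 0.22 (SD, n = 10). On the first probe mouse 5905 was at the level of the pool and mouse 6065 at 1.11, and the median was 0.36. The adjusted p-values were 0.0163 and 0.0221.

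Map1lc3b, the LC3B protein that coats autophagosomes, gave 0.32 ± 0.23 and 0.29 ± 0.19 (SD, n = 10), both called in each orientation. Asrgl1, an asparaginase, was higher on 3 of 3 probes, at 0.27 ± 0.13, 0.29 ± 0.20 and 0.30 ± 0.14. All 3 kept their call without each mouse. Dnajc8, a J-domain protein linked to splicing, was called on 3 of 3 probes at 0.32, 0.28 and 0.18. Pdhb, a subunit of pyruvate dehydrogenase, gave 0.28 ± 0.15 and 0.24 ± 0.17 on called probes and 0.22 ± 0.37 on the third. No Pdhb probe was called in both orientations.

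The others were Nap1l4, a histone chaperone (0.35 and 0.20), Tfam, the transcription factor of mitochondrial DNA (0.35 and 0.19), Rbm28, a nucleolar protein (0.30, 0.27 and 0.23), Med10 of Mediator (0.32, in 9 mice, and 0.19), Serbp1, an RNA-binding protein of ribosomes (0.26 and 0.24), Ipo5, a nuclear import receptor (0.25 and 0.24), and Sparc, a matricellular protein (0.29, 0.28 and 0.17). The lowest Sparc probe and the lowest Rbm28 probe were not called. Both Tfam probes were close to the threshold, and neither kept its call in more than 1 of the 10 fits without a mouse. For Ipo5, Nap1l4 and Sparc 1 called probe each kept its call in 2 of these fits, and the other in 8, 10 and 7. The called Rbm28 probes kept theirs in 3 and 4. No probe of Tfam, Med10, Serbp1, Ipo5 or Sparc was called in both orientations. The higher Tfam probe lay at 0.54 in Cy5 and 0.16 in Cy3, and the higher Ipo5 probe at 0.44 and 0.06. Each of these 2 probes had a called dye difference (adjusted p = 0.0472 in limma).

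Tmsb4x, thymosin beta-4, which binds actin monomers, had the highest mean of the genes called in both orientations that the rule names. Its ratios ran from 0.13 in mouse 5905 over 0.48 to 0.94 in 5907 (mean 0.50 ± 0.29 SD, n = 10; adjusted p = 0.0118). S100a10, the partner of annexin A2, ran from 0.28 to 1.11 with a median of 0.42 (mean 0.50 ± 0.26 SD, n = 10; adjusted p = 0.00984). All 10 mice lay above the pool for both. The other S100a10 probe gave 0.23 and was not called.

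Spermatid genes formed part of this group. Fhl5, a testis coactivator of the germ cell regulator CREM, ran from 0.06 over 0.35 to 0.90 (mean 0.39 ± 0.25 SD, n = 10; adjusted p = 0.0159). Hils1, a linker histone of elongating spermatids, ran from 0.07 over 0.30 to 0.99 (mean 0.39 ± 0.26 SD, n = 10; adjusted p = 0.0178). Cst13 and Cstl1, of the cystatin family of protease inhibitors, gave 0.41 ± 0.26 and 0.39 ± 0.27. Mouse 6065 was the highest for Fhl5, Hils1, Cst13, Cstl1 and Prss52, and it is one of the mice whose orientations ran against each other. Its ratios also spread widely over all tested probes (median absolute deviation 0.283, with 0.107 to 0.314 over the 10 mice).

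Tysnd1, a protease of peroxisomes, gave 0.43 ± 0.28, Gprasp1, a receptor sorting protein, 0.41 ± 0.21, and AY761185 0.48 ± 0.39 (SD, n = 10). Each of these had a further probe near 0, at 0.01, 0.02 and -0.07, that was not called. AY761185 kept its call in 6 of the 10 fits without a mouse.

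**Figure D3:**
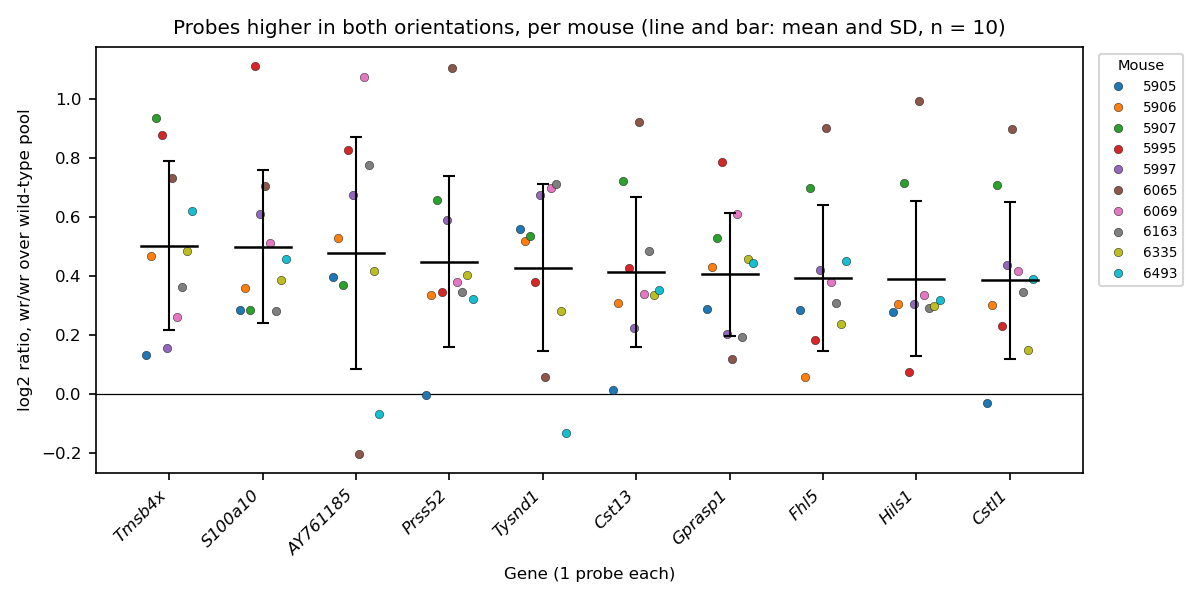
Log2 ratios of the 10 mice (coloured points) for 10 genes called higher in both orientations, with the mean (line) and SD (bar). These have the highest means among probes with a gene symbol, outside the 4 lists and with no probe of the gene called the other way. Mouse 6065 is on top for Prss52, Cst13, Fhl5, Hils1 and Cstl1, and means lie between 0.39 and 0.50.

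Across the lists plotted by share of probes called, the chaperonin list stood furthest above the background of 7.28% of probes called higher. TRiC is the ring-shaped chaperonin that folds actin and tubulin, and prefoldin hands it their chains. Of 24 probes for TRiC, prefoldin and the tubulin cofactors, 15 were higher and none lower, with a median of 0.21 against -0.01 for all probes. Cct4 ran from 0.11 over 0.33 to 0.64 (mean 0.35 ± 0.18 SD, n = 10; adjusted p = 0.011) and was called in both orientations. Cct3 gave 0.27 ± 0.13, Cct8 0.36 ± 0.22 and Tbcb, a tubulin cofactor, 0.22 ± 0.12. Cct8 was high in Cy5 (0.54) and not called in Cy3 (0.18), a called dye difference (adjusted p = 0.0493). Without mouse 6493 the count was 8 of 24, beside 2.15% of all probes. With the mutant in Cy5 alone 14 of 24 were higher and 1 lower, where 9.84% of all probes were higher. With it in Cy3 alone 4 of 24 were higher (16.7%) beside 2.58% of all probes.

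Tubulins are clients of that chaperonin. Of 88 probes for tubulins and microtubule motors, 17 were higher (19.3%) and 3 lower (3.41%), with a median of 0.06. Tubb5 gave 0.33 ± 0.17, Tuba1a 0.30 ± 0.16 and Tuba1c 0.26 ± 0.14 (SD, n = 10), each called in both orientations. Tuba1b, at 0.29 ± 0.12, was high with the mutant in Cy5 (0.51) and near 0 with it in Cy3 (0.07). Tubulin isotypes are close copies, so that probes may not separate them. Among 61 probes for actin turnover 6 were higher (9.84%, beside 7.28% of all probes) and none lower. Myl6, a myosin light chain, lay at 0.39 ± 0.21 and Actg1, gamma-actin, at 0.20 ± 0.11. The other Myl6 probe lay at -0.01 and the other 3 of Actg1 at 0.07 to 0.09, none of them called. The other Tuba1c probe, at 0.18, was not called either. Without mouse 6493, 9 tubulin and motor probes and 3 actin probes were higher, and with the mutant in Cy3 alone 5 (5.68%) and 4 (6.56%).

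The proteasome degrades ubiquitin-tagged proteins. Of its 45 probes, 18 were higher and none lower, with a median of 0.14. Psmc3, an ATPase of the regulatory particle, ran from 0.07 over 0.26 to 0.58 (mean 0.26 ± 0.14 SD, n = 10; adjusted p = 0.0127), with all 10 mice above the pool. Psmd11 gave 0.23 ± 0.14 and, on a further called probe, 0.12, and Psmd4, a ubiquitin receptor, 0.19 ± 0.11. Psmc5 had the same mean as Psmd4 but came from 1 orientation, at 0.00 in Cy5 and 0.38 in Cy3, and its other probes, at 0.10 and 0.11, were not called. Without mouse 6493 the count was 4 of 45. With the mutant in Cy3 alone it was 4 of 45 beside 2.58% of all probes, and with Cy5 alone 16 of 45 beside 9.84%.

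Chaperones and folding enzymes of the endoplasmic reticulum gave 16 higher probes of 54 and none lower, with a median of 0.12. They belonged to 13 of the 37 genes tested. Hspa5, the chaperone BiP, ran from 0.04 over 0.30 to 0.70 (mean 0.29 ± 0.21 SD, n = 10; adjusted p = 0.0205). Hsp90b1, its partner in the lumen, gave 0.31 ± 0.23, Pdia6, a disulfide isomerase, 0.27 ± 0.21 and Calr, calreticulin, 0.19 ± 0.15. Manf, a secreted stress protein, gave 0.24 ± 0.14 but stood at 0.48 in Cy5 and 0.00 in Cy3. Sil1, the nucleotide exchange factor of BiP, gave 0.16 ± 0.09, and Clgn, calmegin, the testis chaperone needed for fertile sperm, 0.17 ± 0.10. Further probes gave 0.21, 0.15 (both called) and 0.16 for Manf and 0.20 (called) and 0.15 for Clgn. Without mouse 6493 the count was 3 of 54, and with the mutant in Cy3 alone 4 of 54 were higher (7.41%) and 2 lower.

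Promoters of ER chaperone genes are known for a stress response element that binds the factors ATF6 and NF-Y. The letters searched were CCAAT and CCACG with 9 bases of any kind between them, on both strands, in the stretch from 250 bases before to 50 bases after each gene start (RefSeq sequences, build GRCm38.p6). Of the 13 genes with a higher probe, 10 had a promoter entry, and 5 of these held the motif: Calr, Ero1b, Hsp90b1, Hspa5 and Pdia6. Of the other 23 genes of the list with an entry, 4 held it (17.4%), as did 37 of 27025 genes in the whole table (0.137%). None of the 13 genes with a higher probe and a promoter entry in the proteasome list held it. A match is a description of the letters only. The promoters of 4 of these 5 genes, those whose values are given above, follow to show the element in place, with the matches in capitals; those of Hspa5 (chr2:34771840-34772139) and Pdia6 (chr12:17266339-17266638) lie on the plus strand, those of Hsp90b1 (chr10:86705395-86705694) and Calr (chr8:84846882-84847181) on the minus strand.
Hspa5: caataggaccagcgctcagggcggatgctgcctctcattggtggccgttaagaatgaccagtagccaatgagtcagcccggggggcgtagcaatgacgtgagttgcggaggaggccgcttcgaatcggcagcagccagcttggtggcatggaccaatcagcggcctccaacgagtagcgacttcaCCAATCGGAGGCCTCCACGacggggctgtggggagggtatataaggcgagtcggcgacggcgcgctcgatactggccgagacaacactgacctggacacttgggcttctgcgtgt
Hsp90b1: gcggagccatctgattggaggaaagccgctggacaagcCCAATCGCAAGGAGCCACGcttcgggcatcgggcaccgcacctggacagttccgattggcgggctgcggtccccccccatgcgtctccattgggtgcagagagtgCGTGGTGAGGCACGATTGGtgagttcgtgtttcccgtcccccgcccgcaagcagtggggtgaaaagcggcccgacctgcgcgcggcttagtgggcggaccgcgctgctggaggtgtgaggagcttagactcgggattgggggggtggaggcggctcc
Pdia6: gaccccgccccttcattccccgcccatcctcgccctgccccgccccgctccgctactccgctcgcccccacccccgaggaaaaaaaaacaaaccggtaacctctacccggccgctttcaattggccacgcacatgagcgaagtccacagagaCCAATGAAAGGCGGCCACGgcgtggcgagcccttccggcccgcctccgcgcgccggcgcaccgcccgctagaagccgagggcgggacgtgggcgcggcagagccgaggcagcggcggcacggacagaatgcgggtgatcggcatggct
Calr: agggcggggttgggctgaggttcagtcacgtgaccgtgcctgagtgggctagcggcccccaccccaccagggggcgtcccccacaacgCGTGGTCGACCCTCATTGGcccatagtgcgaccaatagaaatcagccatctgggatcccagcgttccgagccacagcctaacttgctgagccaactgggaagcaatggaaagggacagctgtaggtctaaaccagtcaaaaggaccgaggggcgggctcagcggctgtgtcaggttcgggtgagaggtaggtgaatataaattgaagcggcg
Hsp90b1 held 2 matches and the others 1 each, beginning at position -65 from the gene start in Hspa5 and -98 in Pdia6.

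Cytosolic heat shock proteins gave 12 higher and 1 lower of 46 probes, with a median of 0.08. Dnajb6 and Dnajb4, co-chaperones of the HSP40 family, gave 0.19 ± 0.10 and 0.20 ± 0.11, and Fkbp4, a partner of HSP90, 0.24 ± 0.15 (SD, n = 10). Their other probes, from -0.04 to 0.12 for Dnajb6, at 0.04 for Dnajb4 and at 0.15 for Fkbp4, were not called. Import and folding in mitochondria gave 13 higher and no lower of 53 probes, among them Timm8b at 0.32 ± 0.19, called in both orientations, and Phb2, prohibitin, at 0.19 ± 0.11. The mitochondrial ribosome gave 15 higher and 3 lower of 79, with Mrps36 at 0.28 ± 0.18. Without mouse 6493 the higher counts were 4, 3 and 3. With the mutant in Cy3 alone, heat shock proteins gave 1 higher and 1 lower probe (2.17% each) and mitochondrial import 1 higher (1.89%), both under the 2.58% higher over all probes, while the mitochondrial ribosome gave 6 (7.59%). With Cy5 alone the higher counts were 16, 17 and 15.

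Translation factors gave 18 higher and 3 lower of 73 probes. Eef1b2, an elongation factor subunit, gave 0.29 ± 0.18 and Eif1b 0.23 ± 0.14. Eif3k, an initiation factor subunit, gave 0.25 ± 0.12, while its other probe lay at -0.44 with a spread of 1.35 and was not called. Of 23 probes for aminoacyl-tRNA synthetases, which load tRNAs, 5 were higher and none lower, led by Aimp1 at 0.30 ± 0.18. Splicing factors and hnRNPs gave 18 higher and 6 lower of 123 probes, among them Hnrnpf at 0.21 ± 0.14, with 0.11 and no call on its other probe, and Lsm12 at -0.19 ± 0.12 beside Srsf11. Without mouse 6493, 4 translation factor probes, 1 synthetase probe and no splicing probe were higher, where 0.813% of the splicing probes, Srsf11 alone, were lower. With the mutant in Cy3 alone, translation factors gave 4 higher and 4 lower probes and splicing factors 3 and 3; with Cy5 alone these were 20 and 0, and 24 and 8.

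**Figure D4:**
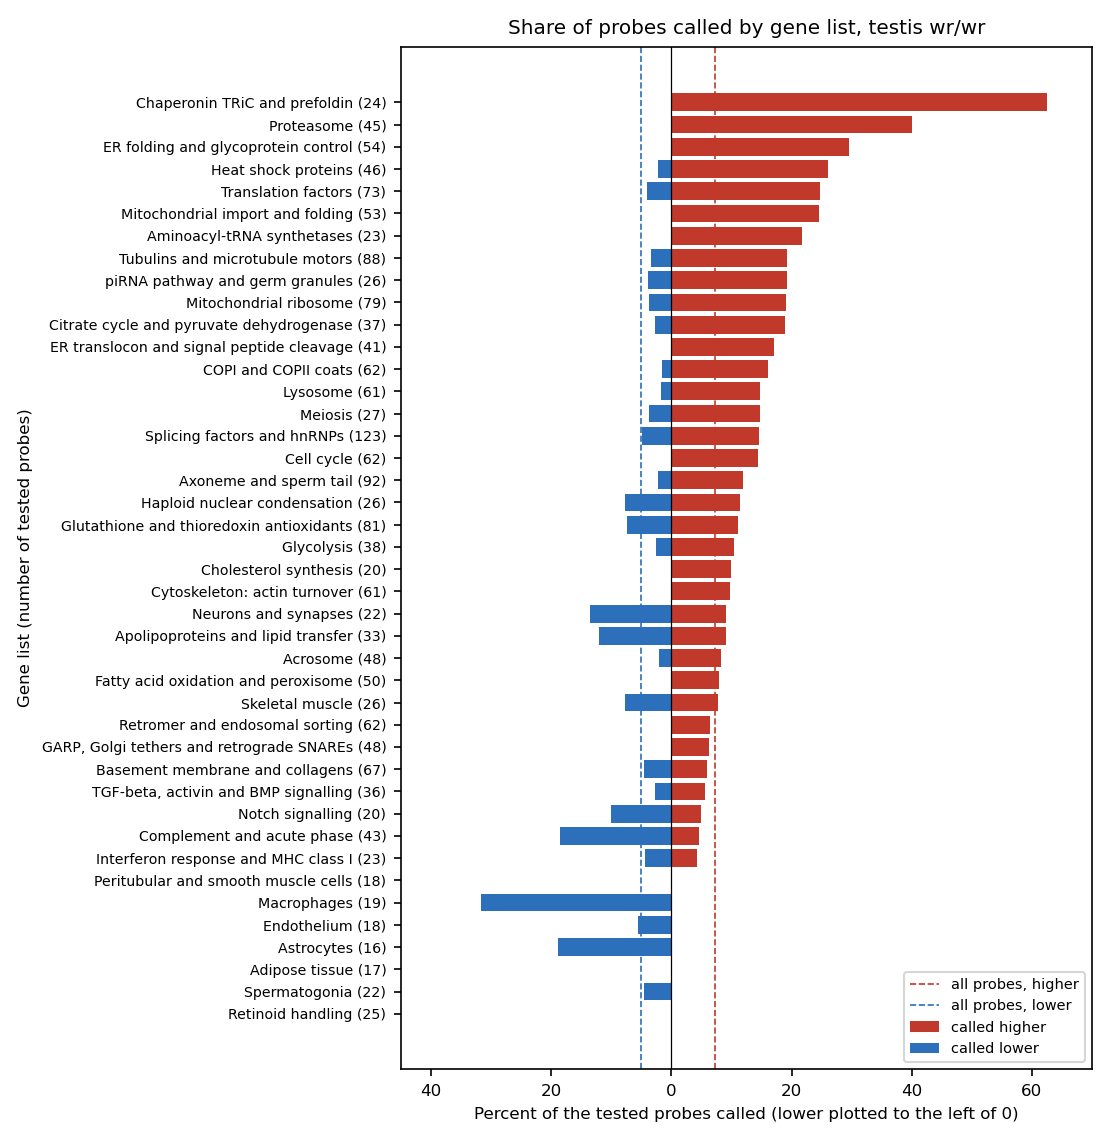
Percent of the tested probes of each list called higher (red, to the right) or lower (blue, to the left) in the combined test, for lists with at least 15 probes; dashed lines mark 7.28% and 5.06%, the shares over all probes. The TRiC and prefoldin list reaches 62.5% and the proteasome list 40.0% on the higher side, and macrophage markers 31.6% on the lower side.

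By the share of probes called, the lists closest to the mutated gene stayed near the background. Their medians lay above the -0.01 of all probes, at 0.04 for the GARP list and 0.06 for the retromer list. Above 0 were 34 of 48 GARP list probes and 50 of 62 retromer list probes. Of 48 probes for GARP, other Golgi tethers and their SNAREs, 3 were higher (6.25%) and none lower. GARP's own subunits Vps52, at 0.09 ± 0.07, and Vps53, at 0.18, 0.08 and -0.06, were not called. The 3 higher ones were Gorasp1, a Golgi stacking protein (0.16 ± 0.08), Cog4 of the COG tether (0.16 ± 0.09) and Rab6a, the Golgi GTPase (0.28 ± 0.20). Gorasp1 lay at -0.08 and 0.02 on its other probes and Rab6a at 0.09, none called, and the called Gorasp1 probe was at 0.05 in Cy3. Of 62 probes for the retromer and endosomal sorting 4 were higher (6.45%), with Rab11a, of recycling endosomes, at 0.22 ± 0.14 and Vps28 at 0.16 ± 0.08, or 0.07 and not called on its other probe. In the GARP list 2 were higher without mouse 6493, and in the retromer list 2 without 6493, 5906, 5907, 5995, 6069 or 6335.

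The COPI and COPII coats between ER and Golgi gave 10 higher (16.1%) and 1 lower of 62 probes. Gosr2, a Golgi SNARE, gave 0.16 ± 0.09, Tmed4 0.18 ± 0.12 and Arf1 0.17 ± 0.13, while Gbf1, which activates Arf1, was lower at -0.71 ± 0.59 on 1 probe and at 0.02 and 0.05, not called, on the others. The other Gosr2 probes, at 0.02 and 0.46, were not called either. None of the 10 was left without mouse 6493, and 2 of 62 were higher with the mutant in Cy3 alone (3.23%). In the lysosome list 9 of 61 probes were higher and 1 lower, and 7 of the 9 were probes for 6 subunits of the V-ATPase proton pump. Atp6v1c1 gave 0.19 ± 0.08, with its other probes at 0.05 and -0.03 and not called, and Atp6v1e1 0.26 ± 0.17 and 0.15, both called. The 9 became 3 without mouse 6493 or 6069 and 4 with the mutant in Cy3 alone (6.56%). The subunits were counted as a group after their values were seen.

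Acrosomal genes were close to the background too, with 4 of 48 probes higher (8.33%) and 1 lower (2.08%), and a median of 0.04. Acr, the protease acrosin, gave -0.14 ± 0.10 and -0.11 ± 0.13 (SD, n = 10), of which the first was called (adjusted p = 0.0379) in the full set and in 2 of the 10 fits without a mouse. Prss37 and Prss55, testis serine protease family members, gave 0.29 ± 0.26 each, and Pdilt, a testis isomerase of the ER, 0.23 ± 0.17. Acrv1 at 0.03 and 0.09, Spaca1 at -0.04 and Zpbp2 at 0.07, all of the acrosome, were not called. Without mouse 6493 no acrosomal probe was called higher, and with the mutant in Cy3 alone 1 was higher and 2 lower.

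Chromatin condensation in spermatids gave 3 higher (11.5%) and 2 lower (7.69%) of 26 probes, beside 7.28% and 5.06% of all probes. Hils1 and Fhl5 were among the higher ones. The transition proteins Tnp1 (0.33 ± 0.50) and Tnp2 (0.28 ± 0.39) and the protamines Prm1 (0.28 ± 0.44) and Prm2 (-0.07 ± 0.34 and 0.00 ± 0.40) were not called. H1f6, a testis linker histone, was lower at -0.23 ± 0.20 (adjusted p = 0.0333). The median of the list ranged from -0.12 in mouse 5995 to 0.42 in 5907, wider than for the folding lists. The sperm tail and axoneme gave 11 higher and 2 lower of 92 probes, with Ift46, of intraflagellar transport, at 0.23 ± 0.12 and Spag6l, of the central pair, at 0.20 ± 0.12. Without mouse 6493, 2 axonemal probes were higher, and with the mutant in Cy3 alone 2 of 92 (2.17%), against 19 with Cy5 alone.

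Lists of earlier germ cell stages and of the cell cycle are set beside 7.28% of all probes higher and 5.06% lower. In the meiosis list 4 of 27 probes were higher (14.8%) and 1 lower (3.7%). Ldhc, the lactate dehydrogenase of meiotic and later germ cells, gave 0.29 ± 0.14, and Rec8, a meiotic cohesin, -0.28 ± 0.20. The piRNA list gave 5 higher (19.2%) and 1 lower (3.85%) of 26, with Tdrd1 at 0.28 ± 0.19 and Tdrd5 at 0.48 ± 0.39. The called Tdrd5 probe reached 1.41 in mouse 6065, and the other, at -0.17, was not called. Of 22 probes for spermatogonia 1 was lower (4.55%) and none higher, Bcl6b, a regulator of their self-renewal, at -0.23 ± 0.19. The cell cycle list gave 9 higher (14.5%) and no lower of 62, led by Anapc5 at 0.25 ± 0.16. Without mouse 6493, 1 meiotic, 1 piRNA and 1 cell cycle probe were higher, and with the mutant in Cy3 alone 0, 0 and 4, against 8, 4 and 17 with Cy5 alone. In Cy5 alone 4 piRNA probes were also lower. That is 15.4% each way, beside 9.84% higher and 7.07% lower over all probes.

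In the glutathione and thioredoxin list 9 of 81 probes were higher (11.1%) and 6 lower (7.41%), beside 7.28% and 5.06% of all probes, and 6 were called in both orientations. Gstm1, also a member of the Leydig list, and Gstm3, glutathione transferases of the mu class, were lower. Gstm1 ran from -0.81 over -0.67 to -0.28 (mean -0.60 ± 0.20 SD, n = 10; adjusted p = 0.0009), and Gstm3 gave -0.34 ± 0.13 (adjusted p = 0.00306). Gsto2, of the omega class, was higher at 0.30 ± 0.15, and Gsta4, of the alpha class, at 0.38 ± 0.26 on 1 probe and 0.12 ± 0.49, not called, on the other. Gsta3, also of the alpha class, was lower at -0.33. Transferases of a class are close copies, and probes may not separate them. The 6 lower probes numbered 6 or 7 when any mouse was left out, while the 9 higher ones fell to 2 without 6493.

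In the list of apolipoproteins and lipid transfer 3 of 33 probes were higher (9.09%) and 4 lower (12.1%), and 5 of these were called in both orientations. Beside Apoc1 and Fabp3, Lrpap1, a chaperone of lipoprotein receptors, gave 0.35 ± 0.12 (adjusted p = 0.00163 in limma). Clu, clusterin, also a member of the Sertoli list, gave 0.39 ± 0.20. The complement and acute phase list gave 8 lower (18.6%) and 2 higher probes of 43. Agt, Lcn2 and Itih2 led by size, followed by C1qa at -0.24 ± 0.19, Cfb, complement factor B, at -0.20 ± 0.15 (-0.08, not called, on its other probe) and C1qc at -0.15 ± 0.08. Without mouse 6493, 2 were lower (4.65%, beside 1.57% of all probes), and with the mutant in Cy3 alone 4 of 43 (9.3%) beside 4.14% of all probes.

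Markers of other cell types in the testis were examined beside these. Of 19 macrophage probes 6 were lower (31.6%) and none higher: Cd68 at -0.37 ± 0.26, called in the full set and without each mouse, Cd74, C1qa, C1qc and Lyz2. Lyz2 gave -0.18 ± 0.13 on that probe and 0.27 ± 0.39, not called, on the other. The median of the macrophage list lay between -0.23 in mouse 5907 and 0.03 in 6065. With the mutant in Cy5 alone 7 of 19 were lower (36.8%), and with it in Cy3 alone 1 of 19 (5.26%, beside 4.14% of all probes), with medians of -0.19 and -0.04. Without mouse 6493, 2 macrophage probes were lower (10.5%, beside 1.57% of all probes), and 3 without 5905, 5997 and 6065 (15.8%, beside 5.06%). C1qa and C1qc are members of the complement list as well. The part of macrophage number in the lower immune genes was not tested.

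No probe was called in either direction by limma among 18 of peritubular cells, 25 of retinoid handling, 17 of adipose tissue and 13 of the epididymis. At an unadjusted p under 0.05 these gave 3, 9, 3 and 1 probes. Among endothelial markers 1 of 18 was lower (5.56%, beside 5.06% of all probes). Of 6 probes for the globin gene Hba-a1, 4 were higher, at 0.31 to 0.51, while 1 lay at -0.08 and was not called. The median over 10 red blood cell probes ran from -0.26 in mouse 6065 to 0.46 in 5997. The part of residual blood in any result was not tested. Astrocyte markers were 3 lower of 16, which were Glul, Slc1a2 and Ntsr2; both Glul and Slc1a2 are also made outside the nervous system.

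The folding lists differed in size between the animals. The median of the TRiC and prefoldin list ran from 0.00 in mouse 5997 to 0.40 in 5907, that of the proteasome from 0.01 in 5905 to 0.38 in 5995 and that of ER folding from 0.01 in 6163 to 0.23 in 5995. All 10 mice were above 0 for these 3 lists, and also for others, among them the GARP and retromer lists, whose shares of calls were near the background. The ribosomal and respiratory lists, left out above, had the same mice at their ends as the TRiC list: the median of the ribosomal list ran from -0.04 in 5997 to 0.46 in 5907 and that of the respiratory list from -0.05 in 5997 to 0.34 in 5907. Over all tested probes the ratios spread more in 5907 (median absolute deviation 0.314) and 5995 (0.251) than in 5905 (0.107), 6163 (0.132) and 5997 (0.143). The part of this spread in the list medians was not tested, nor was whether these lists share one shift.

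**Figure D5:**
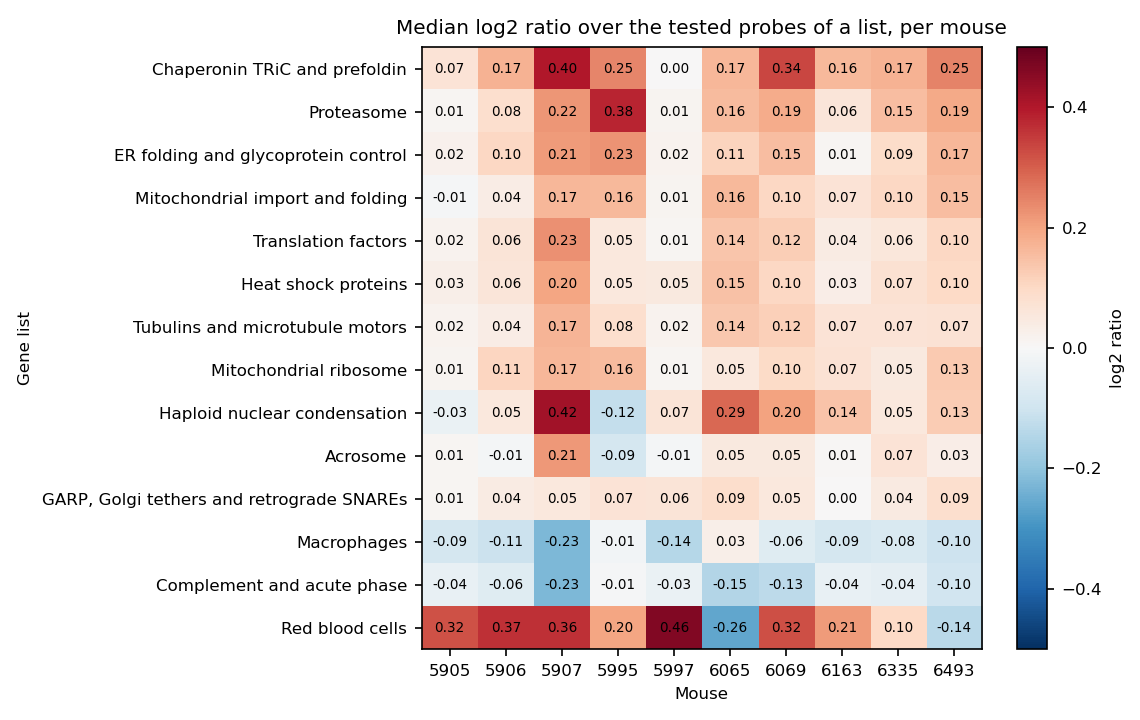
Median log2 ratio over the tested probes of a list (rows) in each of the 10 mice (columns), red above and blue below 0. TRiC and prefoldin reach 0.40 in mouse 5907 and 0.00 in 5997, complement and acute phase genes lie below 0 in every mouse, and the spermatid chromatin list changes sign between 5907 and 5995.

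Other signalling lists held isolated calls. Hes1, a target of Notch signalling, was higher at 0.58 ± 0.29 (SD, n = 10; adjusted p = 0.0081), from 0.23 in the lowest mouse to 1.03 in the highest. Its difference was larger with the mutant in Cy3 (0.79) than in Cy5 (0.37). Lfng, which modifies Notch receptors, was lower at -0.38 ± 0.30, and Notch3 at -0.17 ± 0.15. So 1 of the 20 probes of the list was higher (5.0%) and 2 lower (10.0%), beside 7.28% and 5.06% of all probes. In the matrix list 4 of 67 probes were higher (5.97%) and 3 lower (4.48%), both under the shares over all probes. Timp3, an inhibitor of matrix proteases, gave 0.28 ± 0.16, called in both orientations. Mmp9, a matrix protease, gave -0.24 ± 0.12 and Fn1, fibronectin, -0.22 ± 0.15. Each was called on 1 probe. The others, not called, lay at 0.04, 0.13 and -0.13 for Timp3, at 0.13 for Mmp9 and from -0.16 to 0.02 for Fn1.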

How the data were processed

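Total testis RNA was labelled indirectly with Cy3 or Cy5 and hybridised against the labelled wild-type pool, per the labels' protocols. The values are log2 ratios per probe as deposited by the authors; the sources used here do not say how background and dyes were treated. An array has no count of depth. The 4 arrays of a mouse count as 1 replicate, so that the 10 mice and the 1 wild-type pool limit the precision. No sign was turned. In size 886 values exceeded 10, the 364 with the mutant in Cy5 all positive and the 522 with it in Cy3 all negative. Such signs arise when the Cy3 signal is empty in a ratio of mutant over wild type. An empty Cy5 signal in a ratio of wild type over mutant would give the same signs. The 886 values were kept. Each array was centred on its median, and the 2 arrays of a dye, then both dyes, were averaged per mouse (n = 10). Probes with both orientations in at least 8 mice were tested against 0 with limma 3.58.1 (lmFit, eBayes; R 4.3.3) and Benjamini-Hochberg adjustment over all tested probes; the code was tested on simulated data. Of 20355 probes, 14030 had 1 gene symbol in the platform annotation and 6325 had no single gene, among them 5 with several; 13994 symbols were matched by gene ID and 16 by accession to RefSeq (GRCm38.p6), and 20 were kept as listed.

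Genes named are the 12 highest and 12 lowest with agreeing probes (at least 2, all of 1 sign, at least 2 called), the 10 highest and 10 lowest called in both orientations with no probe called the other way, up to 4 called members of each list by p, and defining members; other names were chosen after their values were seen. Members and lists were chosen with earlier results of these data known. Centring, scaling, missing-value filters, the variance prior, single dyes, left-out mice, gene means and the 40 arrays with mouse as a random block were the alternatives.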

Additional observations from a re-analysis of the deposited data

Results flagged for a closer look

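Among 205 probes of named genes and list members, 16 had 1 mouse that stood apart from the other 9 by more than the 95% limit of Dixon's ratio for 10 samples; chance flags about 1 in 20 such groups. Mouse 5995 stood apart for S100a10 (1.11, the next mouse at 0.71), for both probes of Fam161a (-0.708 and -0.680), for Dnajc8 (0.801), Me2, a malic enzyme (0.621), and Anapc5 (0.614). Mouse 6065 stood apart for Ass1, where its 0.706 was on the other side of 0 from that probe's mean, and for Zfp36l1 (-0.957), Cd74 (-1.09) and Prss55 (0.948). Mouse 5907 did so for Psmc3 (0.585), Hsbp1, a heat shock factor binding protein (0.625), Stk33, a testis kinase (0.525), and Bcl6b (-0.731). For Fxyd1 it was mouse 6069, at -1.36 on 1 probe, and for Selenop mouse 6493, at -0.163 and so nearest to the pool.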

How the results depend on the processing

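The 4 counts (2494 called, 314 called in both orientations, 96 genes with agreeing probes, 949 with a dye difference) kept within 1.5 times under no centring, values beyond 10 set missing, both missing-value filters and the robust prior. Scaling the arrays gave 520 called in both orientations and 2015 with a dye difference. Without mice 5905, 5997 and 6065 these were 493 and 0. In place of the combined test, the fit with the mutant in Cy3 only called 1360 probes. The fit over 40 arrays with mouse as a random block called 4590, and that of gene means 1273 genes, not probes. Leaving out 1 mouse at a time gave 752 to 2580 calls, 113 to 440 in both orientations, 16 to 109 agreeing genes and 1 to 1314 dye differences. Of 205 named probes, 89 lost their call without mouse 6493 and 112 with Cy3 alone. Among called probes, signs turned for Psmc5 in Cy5 alone (-0.00215), for Rfc4 (-0.0268), Arpc2 (-0.004), Bmp7 (0.0492) and Ttn (0.0343) in Cy3 alone, and in gene means for Eif3k (-0.0981) and Lyz2 (0.0450). Probes that were not called turned for Ass1 (0.231), Med13 (0.138) and Sparc (-0.0085) in Cy3 alone, and the same Ass1 probe without mouse 5907, 6069 or 6335; the cause was not tested. The median of arrays in place of the mean was not run, since with 2 arrays per dye it is the same value. No paired analysis was possible because the labels' replicate numbers count arrays of 1 mouse and the only comparison is with a pooled reference.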

Other observations

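The last lists follow, beside 7.28% of all probes higher and 5.06% lower. Of 38 glycolysis probes 4 were higher and 1 lower, and Ldhb, a lactate dehydrogenase subunit, gave 0.35 ± 0.23 (SD, n = 10) while Tpi1, triosephosphate isomerase, gave -0.12 ± 0.09, and 0.03, not called, on its other probe. Of 50 probes for fatty acid oxidation and peroxisomes 4 were higher and none lower, with Ppara, a nuclear receptor for fatty acids, at 0.15 ± 0.08 and 0.18 on called probes and at -0.08, -0.01 and -0.14 on the others. Cholesterol synthesis gave 2 higher of 20, Fdps at 0.23 ± 0.16 and Hmgcs1 at 0.14 ± 0.11 (0.12, not called, on its other probe), and the interferon list 1 higher and 1 lower of 23. For translocation into the ER, 7 of 41 probes were higher (17.1%) and none lower, 1 of 41 with the mutant in Cy3 alone, and Sec63, a translocon partner of BiP, had the highest of these at 0.45 ± 0.26 (adjusted p = 0.0137 in limma), with 0.38 in Cy5 and 0.51 in Cy3; its other probe gave 0.03 and was not called. Of the 37 probes for the citrate cycle and pyruvate dehydrogenase, 7 were higher (18.9%) and 1 lower, and 2 were higher in Cy3 alone. Without mouse 6493, 2 of these and 2 of the translocation probes were higher.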
